A study of Mus musculus with 8 samples.

Results

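The RNA levels of Cd36 and 5 other genes for scavenger receptors and related uptake proteins, Msr1, Scarb1, Scarb2, Lrp1 and Cd68, were followed in a macrophage line given LPS, antibodies against CD36, or both. The genes were taken from the expression table by their symbols. All 6 were among its 10639 genes and all 6 were among the 10289 genes that were tested. Cd36 passed the filter on low values only through the groups that received LPS, so that a difference between these and the other groups was built into its passing. The cells were RAW264.7, a mouse macrophage-like line transformed with Abelson leukaemia virus, and the labels give its genotype as wild type. The 4 groups of 2 libraries each were compared: cells given LPS together with anti-CD36 antibodies for 12 h, cells given LPS at 50 ng/mL for 12 h, cells given anti-CD36 antibodies at a dilution of 1 in 100 for 12 h, and untreated cells. The doses in the combination are not in its labels, and no group received an antibody of another specificity, so binding of CD36 and exposure to antibody as such cannot be told apart. The values are FPKM, fragments per kilobase of transcript scaled to the reads of each library.

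Scavenger receptors let macrophages take up modified lipoproteins, dying cells and microbial surfaces. Cd36 encodes a class B receptor for oxidized low-density lipoprotein, long-chain fatty acids and thrombospondin, and works with Toll-like receptors at the cell surface. Msr1 encodes the class A receptor of macrophages for modified lipoproteins and bacterial surface lipids. Scarb1, a class B relative of Cd36, encodes the receptor for high-density lipoprotein, and Scarb2, another class B relative, encodes a lysosomal membrane protein that carries glucocerebrosidase to lysosomes. Lrp1 encodes a very large endocytic receptor of the low-density lipoprotein receptor family that clears apolipoprotein E particles and protease-inhibitor complexes. Cd68 encodes a heavily glycosylated protein of late endosomes and lysosomes, related to the LAMP proteins and widely used as a macrophage marker. LPS, the surface lipid of Gram-negative bacteria, is sensed through TLR4.

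Library depth, recovered from the FPKM values, was 47900000 to 71700000 reads. Replicates correlated at 0.966 (anti-CD36) to 0.997 (LPS) across genes, which are not independent replicates, and the replicate difference had an SD over genes of 0.45 in anti-CD36 cells and 0.14 to 0.22 in the other groups on the log2(FPKM + 1) scale. Anti-CD36 replicate 1 stood apart, with 15.7% of its FPKM in mitochondrial genes beside 3.28% to 6.62% in the other 7 libraries. All 8 of the macrophage markers examined were in the table, Lyz2 among them at 1444.0 to 3747.0 FPKM, and 0 of 22 markers of T cells, B cells, granulocytes, fibroblasts, epithelium, endothelium and fat cells were in it. Nothing in the labels tells whether replicate libraries are from different cultures, and p-values therefore speak for the spread from library to library alone, part or all of which could be technical. In RNA from a whole culture, fewer cells that use a gene and less RNA of it per cell cannot be told apart.

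On the mouse genome (GRCm38, GENCODE M21) all 6 genes are protein-coding and lie on the minus strand. Cd36 spans chr5:17781690-17888801, Scarb2 chr5:92441314-92506833 and Scarb1 chr5:125277087-125341094, so that the 3 class B genes share a chromosome without being neighbours. Msr1 spans chr8:39581685-39642673, Lrp1 chr10:127538161-127621148 and Cd68 chr11:69664213-69666153. Their counted exon lengths ran from 1257 bp for Cd68 and 3590 bp for Cd36 to 6285 bp for Scarb2, 6344 bp for Msr1, 8500 bp for Scarb1 and 17717 bp for Lrp1. None shared an exon base with another annotated gene.

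The 250 bases before the transcription start were taken from the RefSeq promoter table (GRCm38.p6), which matched 4 of the 6 genes (Cd36, Scarb2, Lrp1 and Cd68). Those of Cd36 (chr5:17835897-17836146), Lrp1 (chr10:127621149-127621398) and Cd68 (chr11:69666171-69666420) are shown. Under LPS the RNA of Cd36 rose, that of Lrp1 fell the most of the 6, and that of Cd68 was also lower but not called. All 3 windows are on the minus strand and are printed 5′ to 3′ in the direction of transcription. The Cd36 window lies inside the gene's span, upstream of one of its several annotated starts. Capitals mark matches, on either strand, to the letters of 7 motifs.
Cd36: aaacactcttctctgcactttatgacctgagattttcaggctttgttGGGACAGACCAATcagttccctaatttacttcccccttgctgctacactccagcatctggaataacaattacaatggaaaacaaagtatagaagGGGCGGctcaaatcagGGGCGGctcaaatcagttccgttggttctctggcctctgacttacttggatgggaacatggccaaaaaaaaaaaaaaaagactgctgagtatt
Lrp1: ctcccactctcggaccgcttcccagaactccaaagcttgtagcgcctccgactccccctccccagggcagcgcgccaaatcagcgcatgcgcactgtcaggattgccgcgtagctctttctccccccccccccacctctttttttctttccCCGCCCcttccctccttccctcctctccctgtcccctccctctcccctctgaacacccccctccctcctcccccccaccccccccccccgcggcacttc
Cd68: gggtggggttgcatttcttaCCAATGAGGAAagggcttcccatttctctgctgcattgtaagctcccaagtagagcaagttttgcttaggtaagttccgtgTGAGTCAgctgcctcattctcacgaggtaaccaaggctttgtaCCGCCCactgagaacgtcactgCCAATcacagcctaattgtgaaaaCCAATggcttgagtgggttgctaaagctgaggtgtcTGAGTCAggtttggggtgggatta
Searched on both strands, these motifs were the AP-1 site TGANTCA, the NF-kB core (GGGA and CC separated by 4 bases), the PU.1 box GAGGAA, the DR1 element of PPAR-type receptors (AGGTCA repeated after 1 base), the CCAAT box, the GC box GGGCGG and the TATA box TATAAA. Of 32851 promoter windows of the same length, 6.75% held the AP-1 letters, 17.6% the NF-kB core, 23.3% the PU.1 box, 0.0335% the DR1 element, 33.8% the CCAAT box, 32.7% the GC box and 12.4% the TATA box. The Cd36 window held 1 NF-kB core that overlaps 1 CCAAT box, and 2 GC boxes. In the Cd68 window there were 2 AP-1 sites, 1 PU.1 box beside 1 of 3 CCAAT boxes, and 1 GC box on the opposite strand, whereas the Lrp1 window held 1 GC box, also on the opposite strand. A match is a description of letters, not a site in use. The windows differed in base composition, with 43.2% G and C in Cd36, 67.2% in Lrp1 and 49.2% in Cd68.

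With LPS, macrophage Cd36 and Msr1 rose many times over while Scarb1, Scarb2 and Lrp1 fell. Of the 6 genes, 2 were called higher and 3 lower in LPS than in untreated cells (limma on log2(FPKM + 1), Benjamini-Hochberg adjusted p under 0.05). Cd36, called higher, passed the filter only through the groups with LPS, so its call is no independent support. Among all tested genes 17.0% were called higher and 37.5% lower, so that 5 calls among 6 stand beside 54.6% called in all. The median difference was -0.65 over the 6 genes and -0.19 over all tested genes on the log2(FPKM + 1) scale. The groups did not overlap for any of the 6, with 2 higher and 4 lower; over all tested genes 30.6% did not overlap and were higher and 54.5% did not overlap and were lower. Rises made up 31.2% of all calls with the values as deposited, 49.2% after median-ratio size factors and 44.6% after quantile normalization.

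**Figure D1:**
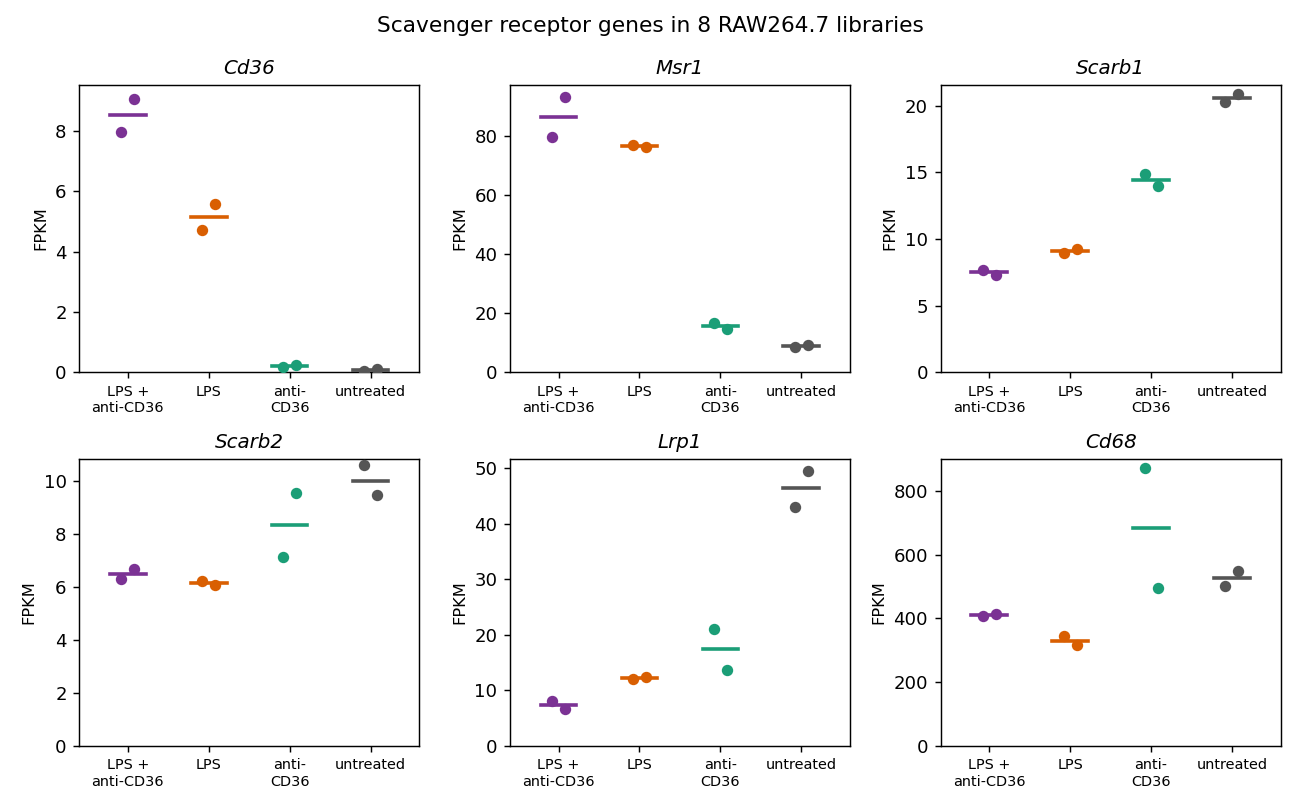
FPKM (vertical axis, from 0, with its own scale for each gene) of the 6 genes in each of the 8 libraries (points), with the group means (bars), for LPS plus anti-CD36, LPS, anti-CD36 and untreated cells. Cd36 stands at 4.71 or more in the 4 libraries with LPS and at 0.223 or less in the other 4, whereas Lrp1 is highest in the 2 untreated libraries.

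Cd36, the target of the antibodies, had 7.98 and 9.08 FPKM in cells given LPS and anti-CD36, 4.71 and 5.57 FPKM in LPS cells, 0.169 and 0.223 FPKM in anti-CD36 cells, and 0.04 and 0.117 FPKM in untreated cells. The 4 groups followed each other without overlap, and the step between the groups with and without LPS was by far the widest. Untreated libraries held 8 reads (95% exact Poisson interval 3.45 to 15.8) and 30 reads (20.2 to 42.8) of Cd36, and anti-CD36 libraries held 29 (19.4 to 41.6) and 46 (33.7 to 61.4). These intervals cover counting error only, since reads without molecular identifiers are not independent molecules. In the libraries with both agents 1752 and 1743 reads were recovered, and in those with LPS alone 1039 and 1270. Within a library, Cd36 stood above 54.0% and 57.7% of the genes in the table with both agents and above 38.6% and 41.3% with LPS, against 0.7% in both anti-CD36 libraries and 0.1% and 0.2% in the untreated ones.

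Against untreated cells, LPS cells had a Cd36 mean of 5.14 ± 0.603 FPKM, and untreated cells 0.0783 ± 0.0541 FPKM (SD, n = 2 each), a 65.6-fold ratio of means. The difference on the log2(FPKM + 1) scale was 2.51 ± 0.11 (SE; 95% interval 2.24 to 2.77). That scale compresses changes of genes as low as this one was in untreated cells. Over the alternatives that gave a value, the difference ran from 1 to 6.13, far wider than the interval. Because Cd36 passed the filter only through the groups with LPS, its call in comparisons of LPS is no independent support. With the antibodies on both sides of the comparison, Cd36 had 8.53 ± 0.774 FPKM in cells given LPS and anti-CD36. Anti-CD36 cells had 0.196 ± 0.0386 FPKM, giving a ratio of 43.5 and a difference of 2.99 ± 0.11, which ran from 1.38 to 5.42 over the alternatives.

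The antibodies alone left Cd36 near the bottom of the table. Its mean was 2.5 times as high in anti-CD36 cells as in untreated cells and the libraries did not overlap, but the difference of 0.15 ± 0.11 was not called (95% interval -0.12 to 0.42; limma adjusted p = 0.415). Over the alternatives that gave a value, this difference ran from 0.03 to 1.43. It was not called under any alternative either (limma adjusted p from 0.0829 to 0.757), and at 8 to 46 reads the depth limits what can be seen. Beside LPS, Cd36 rose further: cells with both agents had 1.66 times the mean of LPS cells, a difference of 0.64 ± 0.11 (95% interval 0.37 to 0.9; limma adjusted p = 0.0449). That was higher than 99.3% of the differences of all tested genes. The call lay close to the threshold and was lost when any 1 of the untreated, LPS or combination libraries was left out (limma adjusted p = 0.0872 to 0.289), although the difference stayed between 0.42 and 0.74 under every alternative that gave a value. It was also lost with a pseudocount of 0.1 (0.169), without mitochondrial genes (0.0537), without a trend in the spread (0.0509), with a replicate block (0.0599) and with voom, limma's read-weighted method, on the recovered reads (0.0773), all limma adjusted p.

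Msr1 had 79.9 and 93.2 FPKM in cells given both agents, 77.1 and 76.4 FPKM in LPS cells, 16.6 and 14.7 FPKM in anti-CD36 cells, and 8.61 and 9.24 FPKM in untreated cells. No group overlapped another, though the lowest combination library lay close to the LPS libraries. LPS raised Msr1 8.6-fold over untreated cells (76.7 ± 0.537 against 8.93 ± 0.449 FPKM, SD, n = 2 each), a difference of 2.97 ± 0.12 (limma adjusted p = 3.72e-06), the largest rise of the 6 genes on that scale. With the antibodies present the rise was 5.52-fold, to 86.6 ± 9.39 FPKM in combination cells against 15.7 ± 1.32 FPKM in anti-CD36 cells (difference 2.39 ± 0.12; limma adjusted p = 8.86e-06).

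Msr1 was the 1 gene of the 6 called higher with the antibodies alone, where 3.04% of all tested genes were called higher. Its mean in anti-CD36 cells was 1.76 times that in untreated cells, a difference of 0.75 ± 0.12 (95% interval 0.46 to 1.03; limma adjusted p = 0.016), and 99% of all tested genes had a lower difference. The call was lost in 3 of 21 alternatives: without either untreated library, and in a fit on only the anti-CD36 and untreated libraries (limma adjusted p = 0.166). The rise kept its sign, at 0.57 to 0.93 over all alternatives. Between the combination and LPS the Msr1 difference of 0.17 ± 0.12 was not called (95% interval -0.11 to 0.45; limma adjusted p = 0.502).

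Scarb1, the receptor for high-density lipoprotein, ran the other way. It had 7.7 and 7.31 FPKM with both agents, 8.97 and 9.27 FPKM with LPS, 14.9 and 14.0 FPKM with anti-CD36, and 20.3 and 20.9 FPKM in untreated cells, again with no overlap between any of the groups. Under LPS it fell to 9.12 ± 0.212 FPKM, against 20.6 ± 0.454 FPKM in untreated cells (SD, n = 2 each), a difference of -1.09 ± 0.1 (limma adjusted p = 0.000103). Combination cells were lower than anti-CD36 cells by a difference of -0.86 ± 0.1 (limma adjusted p = 0.000356). With the antibodies alone Scarb1 fell to 14.4 ± 0.615 FPKM against the 20.6 ± 0.454 FPKM of untreated cells, a difference of -0.49 ± 0.1 (limma adjusted p = 0.0232). The antibody call was lost in 10 of the alternatives, with limma adjusted p of 0.0591 after size factors, 0.069 without mitochondrial genes, 0.14 with the length trend removed, 0.18 in a fit on only these groups, and 0.0544 to 0.152 without any 1 of the untreated, LPS or combination libraries. Its difference between the combination and LPS, -0.25 ± 0.1, was not called (95% interval -0.48 to -0.03; limma adjusted p = 0.212).

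The lysosomal relative Scarb2 had the smallest called difference under LPS. Its values were 6.3 and 6.67 FPKM with both agents, 6.2 and 6.06 FPKM with LPS, 7.13 and 9.53 FPKM with anti-CD36, and 10.6 and 9.47 FPKM in untreated cells. The anti-CD36 libraries lay between the others and overlapped the untreated ones. LPS cells averaged 6.13 ± 0.0967 FPKM and untreated cells 10.0 ± 0.767 FPKM (SD, n = 2 each), a fall of -0.62 ± 0.14 (limma adjusted p = 0.00705) that was not called with the length trend removed (-0.37; limma adjusted p = 0.0606) or without untreated replicate 1 (limma adjusted p = 0.0501). The differences of -0.25 ± 0.14 with the antibodies alone (limma adjusted p = 0.27), of -0.31 ± 0.14 for the combination against anti-CD36 (0.108, limma adjusted p) and of 0.07 ± 0.14 for the combination against LPS (0.833, limma adjusted p) were not called. Without anti-CD36 replicate 2 the difference with the antibodies alone was -0.44 and called (limma adjusted p = 0.0255); wherever leaving out a library leaves 1 in a group, that library is assumed to vary like the other groups. The difference of the combination against anti-CD36 was called without anti-CD36 replicate 1 (-0.49; limma adjusted p = 0.00663) and without mitochondrial genes (limma adjusted p = 0.0246).

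Lrp1 fell the most of the 6 genes, under LPS and under the antibodies alike. It had 8.11 and 6.57 FPKM with both agents, 12.0 and 12.4 FPKM with LPS, 21 and 13.7 FPKM with anti-CD36, and 43.1 and 49.6 FPKM in untreated cells. Every treated library lay below both untreated libraries, and the 2 anti-CD36 libraries differed from each other by more than the 2 of any other group. LPS cells averaged 12.2 ± 0.304 FPKM against 46.4 ± 4.57 FPKM in untreated cells (SD, n = 2 each), 3.8-fold lower, with a difference of -1.84 ± 0.2 (limma adjusted p = 0.000236). Anti-CD36 cells averaged 17.4 ± 5.16 FPKM, 2.67-fold lower than untreated cells, with a difference of -1.39 ± 0.2 (95% interval -1.85 to -0.93; limma adjusted p = 0.0148). Only 0.0389% of all tested genes had a lower difference in that comparison, against 1.07% in LPS against untreated cells.

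Counted over the 6 genes, the antibodies alone gave 1 call higher and 2 calls lower, Msr1 on one side and Scarb1 and Lrp1 on the other, where 3.04% of all tested genes were called higher and 10.6% lower (13.7% in either direction). For 4 of the 6 the libraries did not overlap, 2 higher and 2 lower, against 16.7% and 35.9% of all tested genes. Rises made up 22.3% of all calls as deposited, 41.5% after size factors and 42.1% after quantile normalization. The call of Lrp1 with the antibodies alone was lost without either untreated library. It was also lost in a fit on only the anti-CD36 and untreated libraries (limma adjusted p = 0.166), while the difference stayed between -1.68 and -1.04 over the alternatives. In combination cells Lrp1 averaged 7.34 ± 1.09 FPKM and was lower than in anti-CD36 cells by a difference of -1.12 ± 0.2 (limma adjusted p = 0.00294). It was 1.66-fold lower than in LPS cells, but that difference of -0.67 ± 0.2 was not called (95% interval -1.13 to -0.21; limma adjusted p = 0.126). It was called when either anti-CD36 library was left out (limma adjusted p = 0.0109 each) and in a fit on the LPS and combination libraries alone (limma adjusted p = 0.00168).

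Gene length moved with the antibody differences, and Lrp1 is long. Its 17717 bp compare with a median of 4325 bp over tested genes, of which 116 were at least as long. Across all tested genes, Spearman's rho between length and the difference was -0.445 for anti-CD36 against untreated cells and -0.477 for the combination against LPS, but -0.161 for LPS against untreated cells. Replicates of 1 group showed such slopes too: replicate 1 minus replicate 2 gave a rho of -0.478 in untreated and 0.321 in anti-CD36 cells. With the trend on length removed from every library, the Lrp1 difference was -1.04 for anti-CD36 against untreated cells (limma adjusted p = 0.0196), -1.64 for LPS against untreated cells (limma adjusted p = 0.000177) and -0.33 for the combination against LPS (limma adjusted p = 0.387). The Msr1 rise with the antibodies alone was 0.93 in that fit (limma adjusted p = 0.0151), and the Scarb1 fall was -0.25 and not called (limma adjusted p = 0.14).

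**Figure D2:**
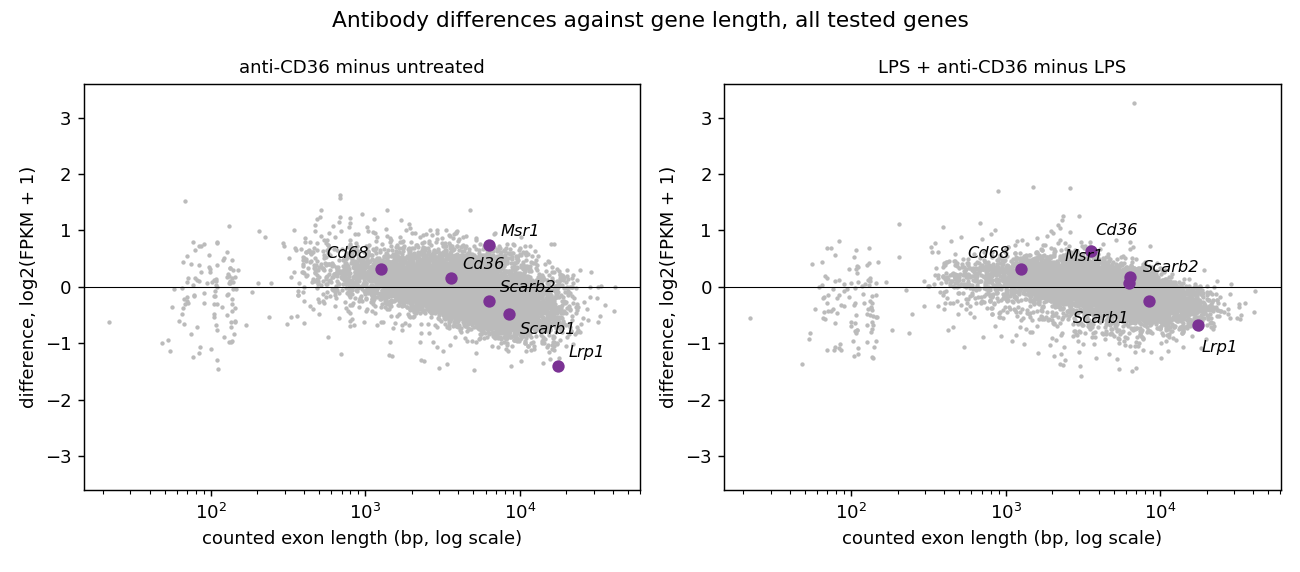
Difference on the log2(FPKM + 1) scale (vertical axis) against counted exon length in bp (horizontal axis, log scale) for all 10289 tested genes (grey) and the 6 receptors (purple, named), for anti-CD36 minus untreated cells (left) and LPS plus anti-CD36 minus LPS (right). Lrp1, at 17717 bp, lies at -1.39 on the left and -0.67 on the right, while Msr1 lies at 0.75 and 0.17.

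Cd68 was the most abundant of the 6 in every library, above at least 98.5% of the genes in the table. It had 407.8 and 412.2 FPKM with both agents, 343.6 and 315.8 FPKM with LPS, 873.4 and 495.1 FPKM with anti-CD36, and 501.8 and 550.2 FPKM in untreated cells. The high value of 873.4 FPKM came from anti-CD36 replicate 1, the library with 15.7% mitochondrial FPKM, and the other anti-CD36 library lay below both untreated ones; the part of that library's state in the Cd68 value was not tested. The LPS mean of 329.7 ± 19.7 FPKM was lower than the untreated mean of 526.0 ± 34.2 FPKM (SD, n = 2 each), but the difference of -0.67 ± 0.26 was not called (95% interval -1.27 to -0.08; limma adjusted p = 0.057). Neither was the difference of -0.68 ± 0.26 between combination cells and anti-CD36 cells (limma adjusted p = 0.0617), of 0.32 ± 0.26 between anti-CD36 and untreated cells (0.435, limma adjusted p) or of 0.31 ± 0.26 between combination and LPS cells (0.56, limma adjusted p).

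The Cd68 calls depended on the libraries, the scaling and the model of the spread. Without either anti-CD36 library, Cd68 was called lower in LPS cells than in untreated cells. The anti-CD36 libraries enter that comparison only through the spread shared by all 8 libraries. Their SD was 267.5 FPKM, beside 19.7 with LPS and 34.2 in untreated cells. Cd68 was also called lower in LPS than in untreated cells in a fit on the libraries of these 2 groups alone (0.00207). The same held with quantile normalization (0.0167), with voom (0.0365) and without a trend in the spread (0.0442), all limma adjusted p. Combination cells were called lower than anti-CD36 cells with quantile normalization (0.0411), without mitochondrial genes (0.0483), without a trend in the spread (0.0481) and with voom (0.0398), all limma adjusted p. A replicate block with the anti-CD36 numbers crossed, chosen after seeing the data, also gave both calls (limma adjusted p = 0.0396 and 0.0427). The labels do not pair libraries across groups, so these calls from the crossed block are no added support. Without anti-CD36 replicate 2, combination cells were lower than the remaining anti-CD36 library (-1.09; limma adjusted p = 0.000215) and that library was higher than untreated cells (0.73; limma adjusted p = 0.00938).

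**Figure D3:**
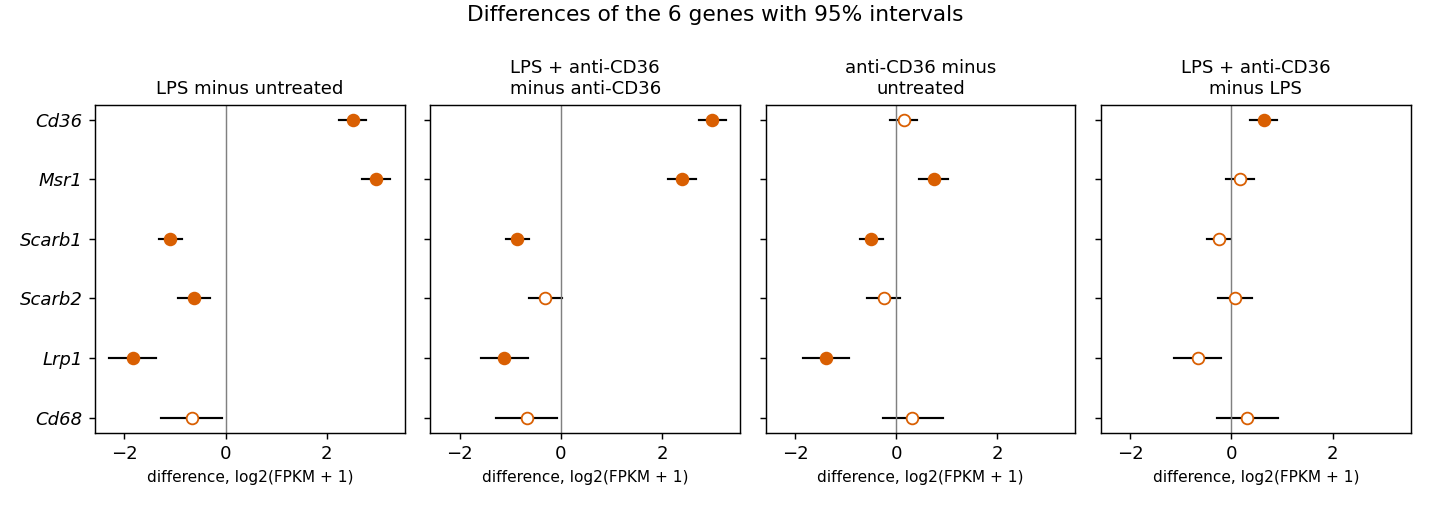
Differences of the 6 genes on the log2(FPKM + 1) scale (horizontal axis) with 95% intervals from limma (lines), filled where called at an adjusted p under 0.05 and open where not, in 4 comparisons. Cd36 and Msr1 lie right of 0 and Scarb1, Scarb2, Lrp1 and Cd68 left of 0 in both comparisons of LPS, while in the combination minus LPS panel Cd36, at 0.64, is the 1 filled point.

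With the antibodies on both sides, 2 of the 6 genes were called higher and 2 lower with LPS (combination against anti-CD36), where 15.4% of all tested genes were called higher and 31.7% lower. The call of Cd36 has the same limit from the filter here as in LPS against untreated cells. Rises made up 32.6% of all calls as deposited, 50.1% after size factors and 45.1% after quantile normalization. Calls there were 47.1% of all tested genes in either direction. The groups did not overlap for any of the 6, 2 higher and 4 lower, as 24.9% and 45.5% of all tested genes did. All 6 genes had the same sign of the LPS difference with and without the antibodies, as did 85.7% of all tested genes. These 2 comparisons share no library. The interaction, the LPS difference with the antibodies minus that without them, was called for 0 of the 6 in limma, where 0.00972% of all tested genes were called, that is Akap12 alone (3.36; limma adjusted p = 0.000507), a scaffold for protein kinases. Unadjusted, 3 of the 6 had p under 0.05 in limma, among 1396 tested genes that did, and voom on the recovered reads called 0 as well.

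Those 3 were Cd36, Msr1 and Lrp1. The interaction was -0.58 ± 0.17 for Msr1 (95% interval -0.98 to -0.18; limma adjusted p = 0.278) and 0.72 ± 0.28 for Lrp1 (0.07 to 1.37; limma adjusted p = 0.336). Cd36 gave 0.49 ± 0.16 (0.11 to 0.86; limma adjusted p = 0.305), but its sign depended on the scale: it was -0.04 with a pseudocount of 0.1 and -0.70 with voom on reads. Scarb1 at 0.23 ± 0.14, Scarb2 at 0.32 ± 0.2 and Cd68 at -0.01 ± 0.36 had limma adjusted p of 0.483, 0.508 and 0.996. Lrp1 was called without anti-CD36 replicate 1 (1.01; limma adjusted p = 0.0315).

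**Figure D4:**
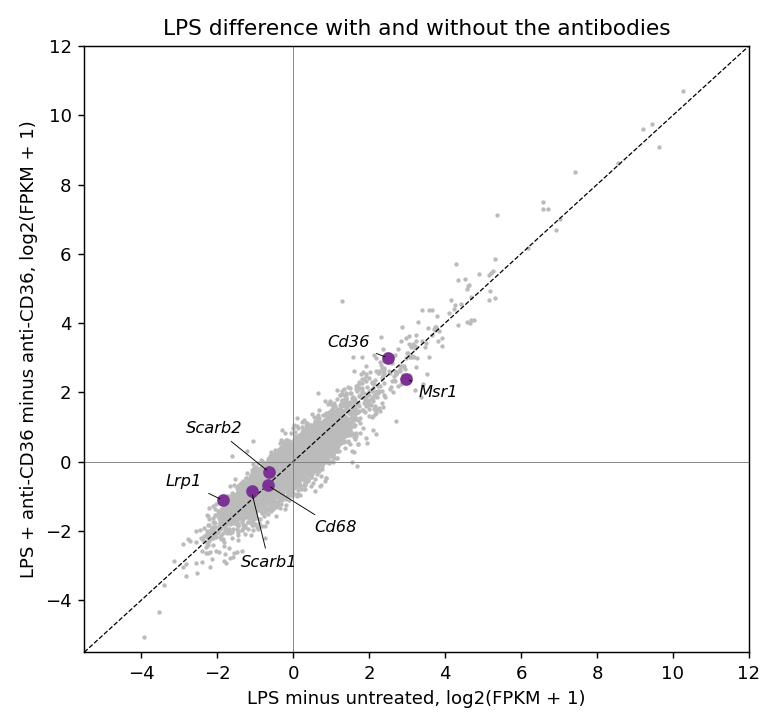
LPS difference without the antibodies (LPS minus untreated, horizontal axis) and with them (LPS plus anti-CD36 minus anti-CD36, vertical axis) on the log2(FPKM + 1) scale for all 10289 tested genes (grey) and the 6 receptors (purple, named); the dashed line marks equal differences. Cd36 lies above the line at 2.51 and 2.99 and Msr1 below it at 2.97 and 2.39.

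Beside LPS, the antibodies gave 1 call among the 6 genes, Cd36, where 0.360% of all tested genes were called higher and 1.42% lower. Rises made up 20.2% of all calls as deposited, 28.9% after size factors and 32.9% after quantile normalization. All 6 genes had combination libraries that did not overlap the LPS libraries, 4 higher and 2 lower, a pattern that 28.5% of all tested genes showed upward and 35.6% downward. The antibody difference had the same sign with and without LPS for 5 of the 6 genes, Scarb2 being the exception, and for 66.5% of all tested genes.

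The order of the 6 genes by FPKM, a per-length scale, changed with treatment below Cd68. In both untreated libraries Lrp1 came second, followed by Scarb1, Scarb2, Msr1 and Cd36. In both LPS libraries Msr1 stood second, ahead of Lrp1, Scarb1, Scarb2 and Cd36. Scarb1, at 8.97 and 9.27 FPKM, and Lrp1, at 12.0 and 12.4 FPKM, were close neighbours there, but their libraries did not overlap. With both agents, Cd36, Scarb1, Scarb2 and Lrp1 all lay within 6.3 to 9.08 FPKM. Cd36 came before Scarb1 and Scarb1 before Scarb2 in both combination libraries, without overlap, while Lrp1, at 8.11 and 6.57 FPKM, led these 3 in replicate 1 and came last in replicate 2. In both anti-CD36 libraries the order was Msr1, Scarb1, Scarb2 and Cd36, and again Lrp1 alone changed place, ahead of Msr1 in replicate 1 and between Scarb1 and Scarb2 in replicate 2. The Msr1 and Scarb1 libraries did not overlap there, though 14.7 and 14.9 FPKM stood close together.

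Of the summed FPKM of the 6 genes, Msr1 held 15.4% and 17.4% with both agents and 17.0% and 17.9% with LPS, against 1.78% and 2.69% with anti-CD36 and 1.47% and 1.45% in untreated cells. Lrp1 held 1.57% and 1.23% with both agents, 2.65% and 2.92% with LPS, 2.25% and 2.51% with anti-CD36, and 7.38% and 7.75% in untreated cells. The Lrp1 to Msr1 ratio of FPKM was 0.101 and 0.0704 with both agents, 0.155 and 0.162 with LPS, 1.27 and 0.931 with anti-CD36, and 5.01 and 5.36 in untreated cells. Each of the 3 treatments thus gave a ratio below that of both untreated libraries, and the 4 groups did not overlap.

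Genes whose log2(FPKM + 1) values ran most nearly parallel to each receptor over the 8 libraries were picked by Pearson's r. The 8 points are 4 pairs of replicates, and such an r says little beyond the order and spacing of the group means. Nearest to Cd36 were Oasl1, an interferon-induced gene (r = 0.999), Tspoap1 (0.998) and Dnmt3l (0.998). Like Cd36, Tspoap1 and Dnmt3l passed the filter only through the groups with LPS, so a step with LPS was built into their passing. Their means without LPS were 0.206 to 0.528 FPKM. Oasl1 averaged 445.4 FPKM with both agents, 227.6 FPKM with LPS, 20.4 FPKM with anti-CD36 and 18.2 FPKM in untreated cells. Nearest to Msr1 were Spp1, which encodes osteopontin, Samsn1 and Phf11b (0.998 each). Fam168a, Asxl1 and Rin2 came nearest to Scarb1 (at least 0.997) and Miga2, Aars2 and Sirt5 to Scarb2 (at least 0.99). Sirt5 averaged only 0.861 FPKM with both agents and 0.765 FPKM with LPS, below the level of the filter. Mical2, Abca3 and Wdfy4 were nearest to Lrp1 (at least 0.998), and Aimp2, Top1mt and Tpgs2 to Cd68 (at least 0.989).

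Genes tied to the 6 receptors were read from 8 lists, against the same shares of calls over all tested genes, which under LPS were 17.0% higher and 37.5% lower and under the antibodies alone 3.04% and 10.6%. For the combination against anti-CD36 cells these shares were 15.4% higher and 31.7% lower, and for the combination against LPS cells 0.360% and 1.42%. Calls for the antibodies alone rest on both untreated libraries and on the spread shared with the groups that received LPS. They were lost without either untreated library. A fit on only the anti-CD36 and untreated libraries called 0 of all tested genes in limma, with Sorl1, Abcg1 and Furin at a limma adjusted p of 0.166. Leaving out 1 LPS or combination library lost some of the calls below as well.

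Other scavenger and uptake receptors were represented by 5 of 22 listed genes in the table, all tested. Under LPS 4 of these 5 rose and 1 fell, with a median difference of 1.21 beside -0.19 over all tested genes. Cd14, the LPS co-receptor, had 1435.2 and 1592.2 FPKM in LPS cells and 534.1 and 459.9 FPKM in untreated cells, a rise of 1.61 ± 0.2 (limma adjusted p = 0.000452). Cxcl16, a membrane chemokine that also binds oxidized lipoprotein, rose by 1.52 ± 0.11 (limma adjusted p = 4.79e-05), and Axl, a receptor for dying cells, by 1.21 ± 0.1 (limma adjusted p = 9.31e-05). Colec12, a class A relative of Msr1, fell to 8.72 and 10.5 FPKM in LPS cells against 21.9 and 24.3 FPKM in untreated cells, a difference of -1.18 ± 0.13 (limma adjusted p = 0.000248), so that the 2 class A genes moved in opposite directions. With both agents against anti-CD36, 3 rose and 2 fell. The antibodies alone gave 1 rise, Clec7a, a receptor for fungal glucan (0.51; limma adjusted p = 0.0273; not called in 8 of 20 alternatives), and beside LPS 0 of the 5 were called in limma (2 at an unadjusted p under 0.05, and 0 called with voom).

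The low-density lipoprotein receptor family of Lrp1, with its chaperones and regulators, had 14 of 20 listed genes in the table, all tested. Under LPS 9 fell and 0 rose in limma as deposited (median difference -0.42 beside -0.19 over all tested genes), but 4 fell and 2 rose after size factors, and 5 fell and 2 rose after quantile normalization. Sorl1, a sorting receptor of the family, fell to 9.29 and 9.42 FPKM in LPS cells against 37.1 and 40.7 FPKM in untreated cells, a difference of -1.95 ± 0.16 (limma adjusted p = 8.25e-05) close to that of Lrp1. Lrp5, a coreceptor for Wnt proteins, fell by 0.94 (limma adjusted p = 0.00344). In anti-CD36 cells 6 of the 14 fell and 0 rose in limma, or 2 once the length trend was removed. Sorl1 had 22 and 15.4 FPKM in anti-CD36 cells against 37.1 and 40.7 FPKM in untreated cells, a difference of -1.04 ± 0.16 (limma adjusted p = 0.0156). Combination cells gave 3 rises and 2 falls against anti-CD36 cells and, in limma, 0 calls against LPS cells (7 at an unadjusted p under 0.05, and 0 called with voom). The rises were small: Lrp11 by 0.46, Lrp12 by 0.4 and Lrp10 by 0.36. The call was lost in 10 of 21 alternatives for Lrp10, 3 of 20 for Lrp11 and 3 of 21 for Lrp12.

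Among ligands of the 6 receptors, 11 of 22 listed genes were tested, and under LPS 3 rose and 4 fell (median difference 0.03). Saa3, an acute-phase apolipoprotein, had 69.6 and 55.4 FPKM in LPS cells and 0.745 and 0.433 FPKM in untreated cells, a difference of 5.32, and it too passed the filter only through the groups with LPS. Lpl, lipoprotein lipase, rose by 2.12 (limma adjusted p = 6e-05). Apoe, an Lrp1 ligand, passed the filter only through the groups without LPS, with 0.685 and 0.478 FPKM in LPS cells and 2.34 and 3.3 FPKM in untreated cells, and its difference of -1.26 ran from -2.29 to -0.48 over the alternatives. With the antibodies alone 1 rose and 1 fell, the rise being that of Hmgb1, a nuclear protein released in injury, by 0.54 (limma adjusted p = 0.0378), a call lost in 10 of 21 alternatives. Beside LPS the 1 call was Plau, which encodes the protease urokinase and had 13.9 and 13.2 FPKM with both agents against 39.0 and 34.9 FPKM with LPS (-1.38 ± 0.17; limma adjusted p = 0.0197). The call was lost without any 1 of the LPS or combination libraries (limma adjusted p = 0.152 to 0.205) and with a replicate block (0.0576).

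Of 27 listed partners and signalling proteins of CD36, 24 were tested, and under LPS 5 rose and 7 fell (median difference -0.11), or 7 and 4 after size factors. Nlrp3, the inflammasome sensor, rose by 1.15 (limma adjusted p = 0.000354). Src, a kinase of the family that CD36 engages, had 1.3 and 1.27 FPKM in LPS cells and 0.0452 and 0.0766 FPKM in untreated cells; like Cd36, it passed the filter only through the groups with LPS, and its difference of 1.11 ran from 0.31 to 4.38 over the alternatives. Tlr4, the LPS receptor itself, fell to 2.7 and 3.68 FPKM in LPS cells against 7.18 and 8.67 FPKM in untreated cells (-1.1 ± 0.15; limma adjusted p = 0.000672). Combination cells against anti-CD36 cells gave 6 rises and 2 falls, among them Itgb2, a leukocyte integrin chain, which rose by 0.97 (limma adjusted p = 0.000512). With the antibodies alone 0 rose in limma and 2 fell, Syk, a kinase downstream of phagocytic receptors (-0.5; limma adjusted p = 0.0359), and Vav2, an exchange factor (-0.44; limma adjusted p = 0.0428). Neither was called after size factors or with the length trend removed, and the calls were lost in 12 of 21 alternatives for Syk and 15 of 20 for Vav2. Between the combination and LPS, limma called 0 of the 24 (3 at an unadjusted p under 0.05, and 0 called with voom).

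Fatty acid uptake and storage, the metabolic side of CD36, had 18 of 20 listed genes tested. Under LPS 3 rose and 8 fell (median difference -0.22), or 5 and 5 after size factors. Fabp4, a lipid chaperone, had 18.6 and 17.0 FPKM in LPS cells and 1.35 and 0.96 FPKM in untreated cells (3.13 ± 0.2; limma adjusted p = 2.43e-05), and Acsl4, which activates fatty acids, rose by 1.02 (limma adjusted p = 0.000727). Abcg1, a cholesterol exporter, fell to 4.91 and 4.5 FPKM against 18.2 and 17.9 FPKM in untreated cells (-1.74 ± 0.12; limma adjusted p = 3.19e-05), and Lipa, the lysosomal lipase, fell by 1.06 (limma adjusted p = 0.000318). Anti-CD36 alone gave 2 calls, both lower, Abcg1 by -0.71 (limma adjusted p = 0.0167) and Abca1, another cholesterol exporter, by -0.53. Abca1 passed the filter only through the groups without the antibodies, with 0.357 and 0.36 FPKM in anti-CD36 cells against 0.901 and 1.01 FPKM in untreated cells. Its difference ran from -1.42 to -0.15 over the alternatives, and its call was lost in 6 of 20. Combination cells gave 3 rises and 7 falls against anti-CD36 cells, or 6 and 4 after size factors, and limma called 0 against LPS cells (3 at an unadjusted p under 0.05, and 2 called lower with voom).

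Known or proposed regulators of Cd36 and Msr1 numbered 24 tested of 29 listed. Under LPS 7 rose and 9 fell (8 and 6 after size factors; median difference -0.35), with rises of Cebpd by 1.34 (limma adjusted p = 0.000219), Jund by 1.27 (0.000177), Junb by 1.19 (0.000488) and Cebpb by 1.15 (0.000261), all transcription factors of the C/EBP and AP-1 families. In anti-CD36 cells 4 fell and 0 rose in limma: Srebf2 and Srebf1, the regulators of sterol and fatty acid synthesis, and Fosl2 and Stat3. After size factors 3 of the 24 were called lower, and with the length trend removed 1. The call was lost in 11 of 21 alternatives for Srebf1, 9 of 21 for Stat3, 4 of 21 for Fosl2 and 3 of 21 for Srebf2. Srebf2 had 49.3 and 45.1 FPKM in anti-CD36 cells against 76.2 and 80.0 FPKM in untreated cells (-0.72 ± 0.11; limma adjusted p = 0.0148). Beside LPS the 1 call was Fos, an AP-1 subunit, with 13.6 and 10.3 FPKM with both agents against 3.65 and 5.29 FPKM with LPS (1.25 ± 0.18; limma adjusted p = 0.0255). That call was lost without any 1 of the untreated, LPS or combination libraries (limma adjusted p = 0.0561 to 0.227) and with a replicate block (0.0631). Against anti-CD36 cells the combination gave 8 rises and 6 falls, or 9 and 3 after size factors.

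Lysosomal genes around Scarb2 and Cd68 split evenly. Of 20 tested among 23 listed, 6 rose and 7 fell under LPS (median difference -0.05), with Npc2, a sterol carrier, up by 1.2 (limma adjusted p = 0.00169) and the protease gene Ctsl up by 1.13 (limma adjusted p = 0.000983). Psap, the precursor of the saposins, fell by 1.26 (limma adjusted p = 0.000166). Lamp1, a LAMP relative of Cd68, fell to 167.5 and 161.8 FPKM in LPS cells against 358.2 and 338.1 FPKM in untreated cells (-1.08 ± 0.17; limma adjusted p = 0.00149). In anti-CD36 cells Npc1 (-0.59; limma adjusted p = 0.0244) and the transcription factor Mitf (-0.53; limma adjusted p = 0.049) fell and the other 18 were not called. After size factors 0 of the 20 were called in limma (5 at an unadjusted p under 0.05, and 2 called with voom on the recovered reads), and the calls were lost in 11 of 20 alternatives for Npc1 and 16 of 21 for Mitf. Combination cells gave 5 rises and 7 falls against anti-CD36 cells, or 7 and 4 after size factors, and limma called 0 against LPS cells (4 at an unadjusted p under 0.05, and 0 called with voom).

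Genes that shed or route such receptors, 19 tested of 22 listed, gave 5 rises and 4 falls under LPS (7 and 4 after size factors; median difference -0.07). Furin, the protease that matures LRP1, had 23.2 and 26 FPKM in LPS cells and 10.5 and 10.5 FPKM in untreated cells (1.16 ± 0.13; limma adjusted p = 0.000257), and Rhbdf2, a partner of the sheddase ADAM17, rose by 1.39 (limma adjusted p = 0.000548). Adam10, another sheddase, fell by 1.17 (limma adjusted p = 0.000293). Arrb1, an arrestin that sorts receptors into endocytosis, had 2.82 and 2.6 FPKM with both agents, 6.44 and 7.79 FPKM with LPS, 18.6 and 18.6 FPKM with anti-CD36, and 34.5 and 33.8 FPKM in untreated cells. It was called lower in all 4 comparisons: -2.12 for LPS against untreated cells (limma adjusted p = 1.22e-05), -0.84 for anti-CD36 against untreated cells (0.0138), -2.4 for the combination against anti-CD36 (6.82e-06) and -1.13 for the combination against LPS (0.0116). The call against LPS was lost without any 1 of the LPS or combination libraries (limma adjusted p = 0.103 to 0.173), and the anti-CD36 call against untreated cells without either untreated library (0.0792 and 0.107) and in a fit on only these groups (0.166). With the antibodies alone 6 of the 19 fell and 0 rose in limma, or 3 fell after size factors, with Furin at -0.77 (limma adjusted p = 0.0165) opposite to its rise under LPS. The interaction was called for 0 genes of every list in limma and with voom, with 1 to 6 genes of a list at an unadjusted p under 0.05 in both.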

How the data were processed

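The authors deposited 1 table of FPKM values with 1 column for each of the 8 libraries. Per the submitters' processing notes, the tool was HISAT2 2.0.5 and the genome builds were hg38 and mm10; what hg38 was for, the read counter and strand use are not given in the sources used here. Libraries were placed in groups by their labels. Per the labels, libraries came from Trizol RNA by an Illumina protocol; 10x Genomics is also named, but the table has 1 value per gene and library. Depth and counted lengths were recovered from the FPKM steps of single reads: 100 to 112 of 102 to 115 short RNAs per library came out whole within 0.02, and 10638 genes got a length.

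Genes at 1 FPKM or more in at least 2 libraries (10289 of 10639) were tested on log2(FPKM + 1) with limma 3.58.1 in R 4.3.3, as 4 group means over all 8 libraries with a trended spread (4 residual and 3.46 prior degrees of freedom) and Benjamini-Hochberg adjustment over all tested genes. The script was tested on simulated data. The genes and lists were chosen with earlier results of these data known. Named are the 6 genes, up to 4 called genes of each list per comparison with the largest absolute difference, and the 3 genes nearest to each of the 6 by Pearson's r; genes that make up a count of 5 or fewer may be named too. Alternatives covered pseudocounts, filters, scaling, length, spread, replicate blocks and single libraries. The fit of recovered reads by voom and the block with crossed numbers were chosen after seeing the data. Listed genes outside the table were not analysed here. Some genes that the naming rule takes are counted but not reported by name here.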

Additional observations from a re-analysis of the deposited data

How the results depend on the processing

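Of 30 results for the 6 genes (5 comparisons of each), 16 kept their direction and their call under every alternative that could be fitted. The sign of 3 that were not called changed: the Cd36 interaction (-0.04 with a pseudocount of 0.1, -0.7 with voom), Cd68 for anti-CD36 against untreated cells (-0.05 with quantile normalization, -0.09 to 0.73 with 1 library left out) and the Cd68 interaction (0.22 with quantile normalization, 0.04 with the length trend removed, -0.42 to 0.4 with 1 library left out). No called difference turned round in any of them. A mean FPKM of at least 5 removed Cd36, which then has no value. The 5 calls among the 6 genes in LPS against untreated cells ranged from 4 to 6 with 1 library left out, and the 4 calls of the combination against anti-CD36 from 4 to 5. For anti-CD36 against untreated cells the 3 calls became 0 in a fit on only these groups (limma; 3 at an unadjusted p under 0.05) and ranged from 0 (without either untreated library) to 5 (without anti-CD36 replicate 2). For the combination against LPS the 1 call became 0 with a pseudocount of 0.1, a mean FPKM of at least 5, mitochondrial genes left out, no trend or voom (limma; 2 to 3 unadjusted), and 2 in a fit on only these groups; it ranged from 0 to 2 with 1 library left out, and the interaction from 0 to 1.

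Over all tested genes, the 5614 calls of LPS against untreated cells became 3665 with a mean FPKM of at least 5, and 3598 (without LPS replicate 1) to 7091 with 1 library left out. The 4844 of the combination against anti-CD36 became 3098 and 3216 (without combination replicate 1) to 6381. The 1405 of anti-CD36 against untreated cells became 811 with that filter, 838 without mitochondrial genes, 773 with the length trend removed and 0 in a fit on only these groups (limma; 2045 unadjusted), and ranged from 0 to 3730; voom called 1537. The 183 of the combination against LPS became 88 with that filter and 2307 in a fit on only these groups, and ranged from 1 to 1431. The 1 interaction call became 0 with a pseudocount of 0.1 or voom (limma; 1301 and 1312 unadjusted), 6 with a pseudocount of 5 and 2 with the length trend removed, and ranged from 1 to 615. The causes were not tested.

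Replicate numbers are not said to pair libraries across groups, and deviations of libraries with the same number correlated at -0.645 (untreated and anti-CD36) to 0.53 (untreated and combination). With a replicate block, 863 genes were called for anti-CD36 against untreated cells and 46 for the combination against LPS, where 0 of the 6 were called (limma; 3 unadjusted). With the anti-CD36 numbers crossed in the block, a choice made after seeing the data, these counts of genes were 1922 and 325. Low read numbers limit Cd36 without LPS.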
